A study of Mus musculus with 8 samples.

Results

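Non-classical monocytes were the cells that the authors labelled ncMono in a single-cell RNA sequencing study of mouse lung, and they made up 370 of the 41106 cells in the deposited matrix. The study asked how long exposure to cigarette smoke changes the cells of the lung. All 8 mice were Sftpc-CreERT2-mTmG animals on the C57BL/6 background, given tamoxifen at 8 to 10 weeks of age, and the 4 mice exposed to cigarette smoke (CS) for 10 months were compared with 4 littermates kept in room air (RA) for the same time. Each group is labelled as 2 male and 2 female mice. The Sftpc promoter, active in alveolar type 2 cells, drives the Cre that switches the reporter from red (tdTomato) to green (eGFP), so the allele was not built to mark monocytes. Lungs were perfused and digested, and the cells were split by the leukocyte antigen CD45 and remixed to favour CD45-negative cells, so shares of immune cells among all cells follow that mixing as well as the tissue.

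Blood monocytes fall into classical cells, which carry high Ly6c2 and the chemokine receptor Ccr2 and enter inflamed tissue, and non-classical cells, which crawl along the lining of small vessels and take up debris there. Non-classical monocytes arise from classical ones, and the nuclear receptor Nr4a1 is needed for their formation. The lung holds many of them inside its capillaries. A digest of perfused lung therefore contains cells that stayed attached to the vessels as well as cells in the tissue, and the labels do not separate these.

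The RefSeq bases upstream of the 3 marker genes are shown because these genes name the cells. Each runs 5′ to 3′ on the plus strand of GRCm38.p6 from 250 to 11 bases before the RefSeq transcript start. The windows are chr15:101266596-101266835 for Nr4a1, chr11:105967698-105967937 for Ace (the upstream of its 2 RefSeq starts) and chr17:48264045-48264284 for Treml4. Capitals mark the heptamer TGCGTCA or its reverse complement TGACGCA.
Nr4a1: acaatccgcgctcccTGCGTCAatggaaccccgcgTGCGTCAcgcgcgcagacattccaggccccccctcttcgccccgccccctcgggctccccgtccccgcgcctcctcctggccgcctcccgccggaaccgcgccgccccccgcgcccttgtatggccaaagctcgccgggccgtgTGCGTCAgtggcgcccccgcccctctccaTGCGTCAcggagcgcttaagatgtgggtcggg
Ace: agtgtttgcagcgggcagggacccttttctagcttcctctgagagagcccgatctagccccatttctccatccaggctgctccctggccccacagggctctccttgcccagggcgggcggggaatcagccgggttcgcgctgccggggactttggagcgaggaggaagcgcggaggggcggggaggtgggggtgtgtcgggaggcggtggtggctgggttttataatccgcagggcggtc
Treml4: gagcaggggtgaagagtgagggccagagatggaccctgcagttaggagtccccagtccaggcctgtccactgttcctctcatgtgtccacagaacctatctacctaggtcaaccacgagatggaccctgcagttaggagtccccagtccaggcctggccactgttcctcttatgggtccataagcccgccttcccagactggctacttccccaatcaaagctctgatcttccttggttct

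The heptamer, which resembles the site bound by AP-1, occurred 4 times upstream of Nr4a1 and at neither of the other genes. It was found at least once in 1.63% of 32851 RefSeq windows of the same length, and Nr4a1 was the 1 window with 4 or more. The NBRE (AAAGGTCA, the site that Nr4a1 itself binds) was in none of the 3 windows and in 1.28% of all. The GC box (GGGCGG) occurred 3 times at Nr4a1, 4 times at Ace and 0 times at Treml4, and in 31.3% of all windows. No motif contains another, both strands were searched for each, and the heptamer was chosen after the Nr4a1 window had been read. A match describes letters only.

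The 370 cells came unevenly from the mice. CS mice C2, C5, D2 and D5 gave 71, 61, 50 and 73 cells, and RA mice F3, M1 and M3 gave 32, 42 and 39. RA mouse F1 gave 2 cells. It also gave 6 cells labelled mast cells, against 51 to 264 in the other mice, while its 85 classical monocytes and 373 neutrophils lay within or above the range of the others. F1 was therefore left out wherever levels of genes were tested, which leaves 4 CS and 3 RA mice. For a further check of the labels, Xist, the RNA that silences an X chromosome in females, stood at 7.399 and 8.15 transcripts per 10000 in C2 and C5, which are labelled male, and at 0.0745 and 0 in D2 and D5, which are labelled female. Ddx3y and Eif2s3y, annotated on chromosome Y, were both at 0 in C2 and C5. In D2 and D5 Ddx3y was at 1.05 and 1.53 and Eif2s3y at 0.631 and 0.499. These values go against the labelled sex of all 4 CS mice. Of the RA mice with enough cells, only F3 is labelled female, and its Xist was at 8.16. Sex was no term in any test.

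Depth was lower in non-classical than in classical monocytes. The median number of unique molecular identifiers (UMIs) per non-classical monocyte was 5818, 3917, 3540 and 4363 in CS mice C2, C5, D2 and D5, and 5634, 4300 and 6225 in RA mice F3, M1 and M3. The groups overlapped, with means of 4409 ± 998 (SD, n = 4) and 5386 ± 986 (SD, n = 3), and p was 0.286 in a two-sided exact permutation test, where 0.0571 is the smallest p that 4 mice against 3 allow. Within each of the 7 mice the median was 0.531 to 0.825 of that in classical monocytes. Genes with few transcripts are thus read with less precision here, and levels are given as transcripts per 10000, scaled within each cell and then averaged over the cells of each mouse.

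The 3 markers given for the label were found in most of the cells. Nr4a1 was found in 96.8% of 370 cells (95% Wilson interval 94.4 to 98.1), Ace in 93.2% (90.2 to 95.4) and Treml4 in 86.2% (82.3 to 89.4). All 3 were found together in 294 cells and at least 1 in every cell, and 0 of 370 cells without any allows a share of up to 0.811%. In T cells, which should lack Ace and Treml4 and have a similar median depth (4755 UMIs against 4885), the shares were 4.80% and 0.395%, and Nr4a1, which many cells use, was found in 38.1%. These intervals cover counting error only.

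None of the 3 markers alone set the label apart from every other. Treml4, a receptor of the TREM family on myeloid cells, stood at 6.49 ± 0.603 per 10000 (SD, n = 7 mice), with neutrophils next at 5.13 ± 1.07 (n = 8) and classical monocytes at 0.708 ± 0.271 (n = 8). The ranges over mice of the first 2 of these, 5.87 to 7.61 and 3.596 to 6.88, overlapped. Ace, the enzyme that makes angiotensin II, stood at 8.27 ± 1.03, below arterial endothelium at 12.6 ± 1.72, and its range of 6.27 to 9.44 overlapped with both kinds of capillary endothelium. Nr4a1 stood at 14.8 ± 3.08, between peribronchial fibroblasts at 18.1 ± 5.29 (n = 6) and adventitial fibroblasts at 11.8 ± 2.36 (n = 8), and these neighbours overlapped too. In classical monocytes Nr4a1 was 3.37 ± 1.31 and Ace 0.549 ± 0.175. These values describe the label, since the authors named clusters from such genes.

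**Figure D1:**
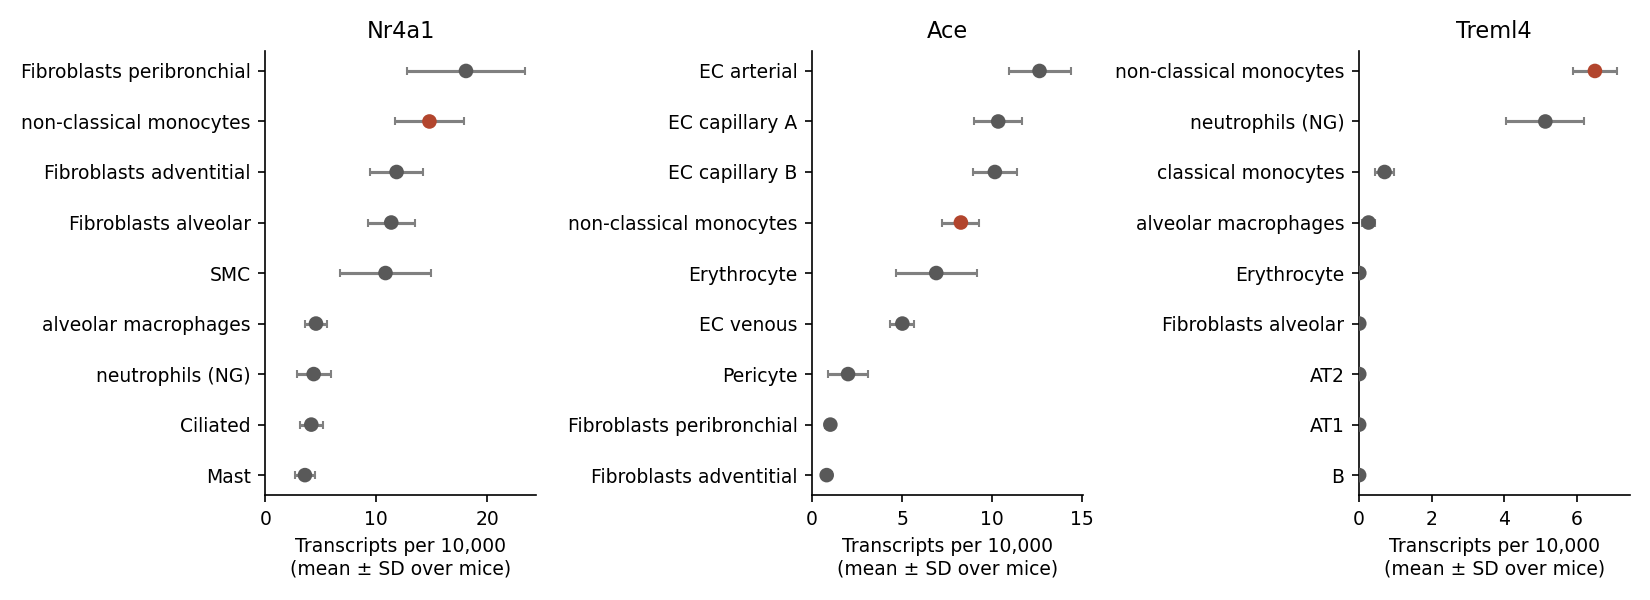
Level of the 3 markers (x axis, transcripts per 10000, mean ± SD over mice with at least 20 cells of the label) in the 9 labels with the highest means among those with 3 or more such mice (y axis, EC for endothelial cells, SMC for smooth muscle cells). Non-classical monocytes, in red, lie at 6.49 for Treml4, above all others shown, at 14.8 for Nr4a1, below peribronchial fibroblasts, and at 8.27 for Ace, below arterial and both capillary endothelia.

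Genes that set the label apart from every other label were found beside the markers. Of 2031 genes at 1 or more per 10000 in non-classical monocytes, 258 had their highest mean there among 31 labels with at least 50 cells. The same cells were clustered and named from their genes, so these values describe the label and no test is given. Cd300e, an activating immune receptor, led the list at 3.77 per 10000, which was 75.0 times the next label, and it was found in 68.6% of the cells against 0.894% of classical monocytes and 0.169% of T cells. Eno3, the muscle form of the glycolytic enzyme enolase, followed at 2.49 with a ratio of 22.4. Adgre4, an adhesion receptor of the EGF-TM7 family, stood at 7.09 and Smpdl3b, a membrane-bound phosphodiesterase, at 4.16, with classical monocytes next at ratios of 10.7 and 13.2.

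The other 11 of the 15 genes with the largest ratios had varied roles. Pou2f2, the octamer-binding factor Oct-2 known from B cells, stood at 14.9 with B cells next, a ratio of 3.70. Itgal, the alpha chain of the integrin LFA-1 that binds vessel walls, stood at 14.8 and was 3.34 times the next label, cytotoxic lymphocytes. Rap1gap2, a regulator of the small GTPase Rap1, was at 9.85 with a ratio of 3.91, and Gngt2, a G protein gamma subunit, at 11.4 with a ratio of 3.08. The others were Ccdc192, Skint3, Pot1b, Cyp2ab1, Zfyve9, Tiam2 and Tmem51, with ratios between 3.62 and 13.3. Each of the 15 was highest in this label in 7 of 7 mice, among labels with at least 20 cells in that mouse. Pot1b, a protein of chromosome ends, and Adgre4 are neighbours on chromosome 17 of GRCm38, at 55651951 to 55712628 and 55749984 to 55853662, with 37355 bases between them.

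Against classical monocytes of the same mouse, both identity lists separated completely. All 21 genes of the non-classical list were higher and all 10 of the classical list lower in 7 of 7 mice, with median differences of 1.83 and -1.99 on the log2(level + 1) scale. Over the 7417 genes compared, 14.9% were higher and 15.7% lower in all 7 mice, and the median was 0.00. Since the labels rest on these genes, this is a description as well.

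**Figure D2:**
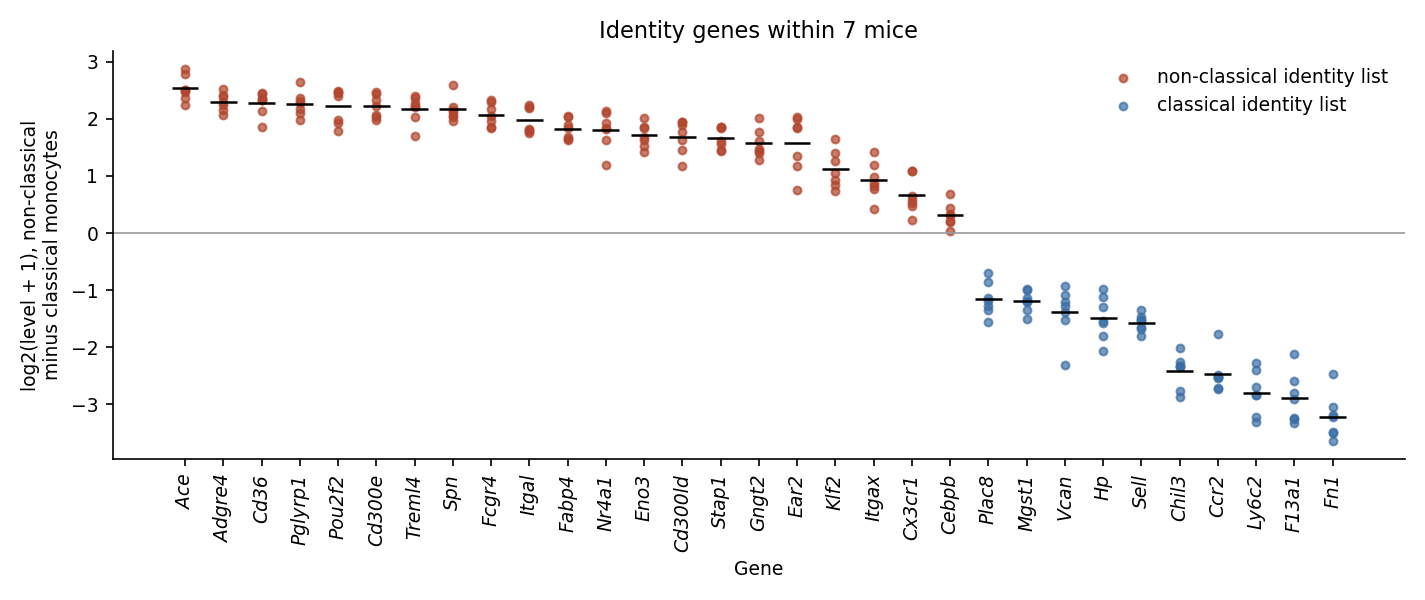
Difference between non-classical and classical monocytes of the same mouse (y axis, log2(level + 1)) for the 31 genes of the 2 identity lists (x axis). Points are the 7 mice and bars their means, and every point of the 21 non-classical genes lies above 0 and every point of the 10 classical genes below 0.

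The largest differences between the 2 kinds of monocyte were as follows. Dusp16, a phosphatase that acts on the kinases JNK and p38, was 19.0 per 10000 (range 16.3 to 21.6 over 7 mice) against 0.807 in classical monocytes, a log2 difference of 3.48 ± 0.29 (SD, n = 7). Pparg, a nuclear receptor of lipid metabolism, was 7.54 (5.38 to 9.69) against 0.256. Bcl2, which protects cells from death, was 6.35 (5.17 to 8.71) against 0.423, and Tcf7l2, a factor of the WNT pathway, 6.78 (5.71 to 7.63) against 0.468. For each of these genes every mouse had the higher level in its non-classical monocytes, and the ranges of both kinds did not overlap. Ace, Setbp1, Adgre4 and Cd36 completed the 8, with log2 differences of 2.27 to 2.53.

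The genes furthest in the other direction included Fn1 and Ccr2. Fn1, fibronectin, was 0.659 per 10000 (0.184 to 1.37) against 14.4 in classical monocytes, a log2 difference of -3.22 ± 0.39. F13a1, a subunit of clotting factor XIII, was 0.341 (0.0726 to 0.950) against 8.85, and Ly6c2 0.249 (0.0661 to 0.654) against 7.83. Ccr2 was 0.694 (0.322 to 1.18) against 8.40, and it was found in 18.6% of non-classical and 91.2% of classical monocytes. Chil3, Thbs1, Wfdc17 and Atrnl1 were the other 4 of the 8 lowest, at log2 differences of -2.41 to -2.58. Plac8, a member of the classical list, remained at 10.8 or more per 10000 in every mouse, against 29.5 in classical monocytes.

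Gene groups with known roles in these cells divided between the 2 kinds of monocyte. The counts below stand beside 14.9% higher and 15.7% lower in all 7 mice over the 7417 genes compared. Of 15 adhesion and trafficking genes, 9 were higher and 2 lower in non-classical monocytes in 7 of 7 mice. Among the 9 were Itgal, Itga4, Itgb1, Spn and S1pr5. The mean of S1pr5, a receptor that lets cells leave the bone marrow, was 1.45 (CS) and 1.74 (RA) against 0.0560 in classical monocytes. All 7 MHC class II genes were lower in 7 of 7 mice. Cd74 was at 8.53 to 18.03 against 14.8 to 48.9 in classical monocytes (mean 31.4), so its ranges over mice overlapped. Of 15 interferon-stimulated genes 10 were lower and 0 higher in 7 of 7 mice, and of 8 glucocorticoid-linked genes 6 were higher and 0 lower. Of 16 Fc receptor and uptake genes, 8 were higher and 6 lower. Fcgr4, a receptor for IgG, stood at 4.46 ± 0.607 (CS) and 4.46 ± 1.03 (RA) against 0.296 in classical monocytes, while Fcgr3, the related low-affinity receptor, was lower in all 7 mice.

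The share of non-classical monocytes was higher on average in CS than in RA mice, by less than the exact test could tell from the spread between mice. They made up 6.85%, 4.80%, 3.03% and 6.02% of immune cells in CS mice C2, C5, D2 and D5, and 0.248%, 2.93%, 4.06% and 4.09% in RA mice F1, F3, M1 and M3. Of the CS mice 3 lay above every RA mouse and D2 lay among them. The means were 5.17% ± 1.66 and 2.83% ± 1.81 (SD, n = 4 each), and the exact two-sided permutation test gave p = 0.114, where 0.0286 is the smallest p that 4 against 4 allow. Without F1 the RA mean was 3.70% ± 0.661 and the exact permutation p was 0.229. The 95% Wilson intervals reached from 2.31% to 3.98% in D2 and from 0.0681% to 0.900% in F1.

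Within the 4 sequencing lanes, each of which held 1 CS and 1 RA mouse, the CS mouse had the larger share of immune cells in 4 of 4. The difference was 6.60 percentage points in the lane of C2 and F1, and 0.101, 0.734 and 1.93 in the other 3. The 0.101 was that of D2 and F3, whose 95% Wilson intervals, 2.31% to 3.98% and 2.09% to 4.11%, overlapped. No test was run over the lanes. Cells that the authors called multiplets touch these shares. In the cluster that holds 343 of the 370 cells, 186 further cells were labelled multiplets, 18 to 43 in each CS mouse and 11 to 19 in each RA mouse, F1 among the latter with 19. With these counted as non-classical monocytes the shares were 7.42% ± 1.44 in CS and 4.33% ± 1.27 in RA mice, all 4 CS mice above all 4 RA mice. The exact permutation p was 0.0286, in a setting chosen after seeing the data. Only the multiplets of this cluster were added, to both parts of the share. Those of other clusters, with 67 in the main cluster of classical monocytes, stayed out, so the share does not treat all immune cells alike. Whether the 186 cells are multiplets was not tested.

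Among monocytes alone, the non-classical share was 46.1%, 51.3%, 27.9% and 38.6% in CS mice and 2.30%, 25.2%, 43.8% and 43.3% in RA mice, in the same order. The groups overlapped, with means of 41.0% ± 10.1 and 28.6% ± 19.6 (SD, n = 4 each) and an exact permutation p of 0.314. Without F1 the RA mean was 37.4% ± 10.6 and the exact permutation p was 0.629. With the multiplets of both monocyte clusters counted, also chosen after seeing the data, the means were 48.3% ± 10.1 in CS and 36.9% ± 15.2 in RA mice. The exact permutation p was then 0.229. Within lanes the CS mouse was higher in 3 of 4. Fewer cells of a type recovered and fewer present cannot be told apart from these counts.

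**Figure D3:**
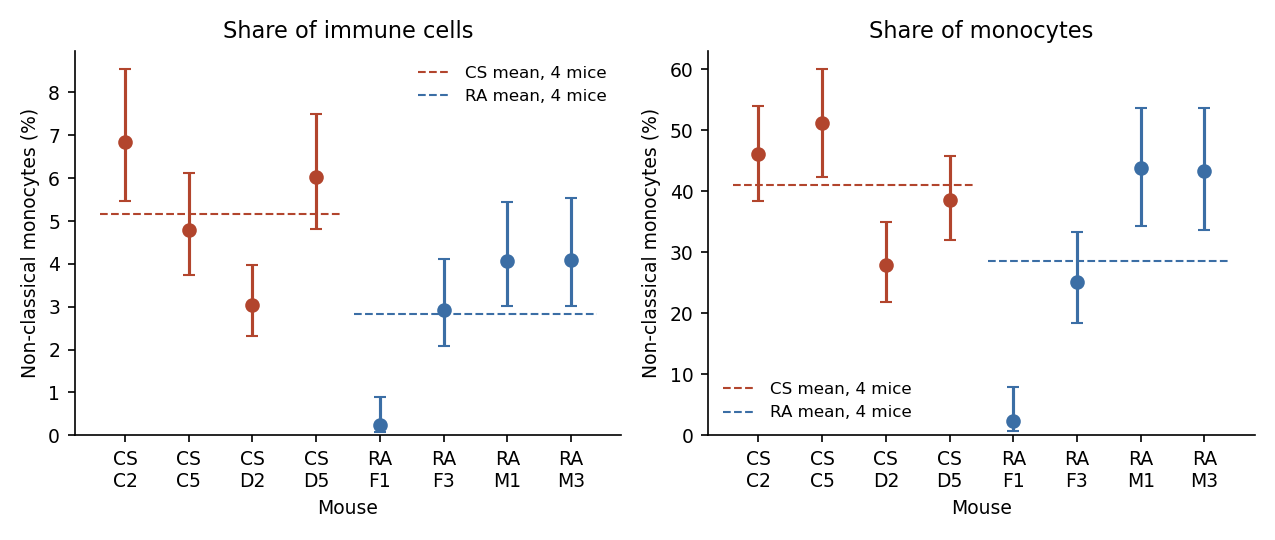
Non-classical monocytes as a percent of immune cells (left) and of all monocytes (right) in each mouse, with 95% Wilson intervals that cover counting error only, and the mean of each group of 4 mice as a dashed line. RA mouse F1 lies lowest in both panels, at 0.248% and 2.30%, and the other RA mice lie within or near the range of the CS mice.

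No gene passed the test between CS and RA in non-classical monocytes. Of 6433 genes tested with limma in 4 CS and 3 RA mice, 0% were called at an adjusted p of 0.05. Unadjusted p was under 0.05 for 421 (6.54%), 239 higher and 182 lower in CS. All 4 CS mice lay above all 3 RA mice for 269 genes (4.18%) and below them for 184 (2.86%). The median difference over all genes was 0.01 on the log2(level + 1) scale. With the lane as a block, which leaves 3 pairs since C2 then has no partner, 1 gene was called. With genes kept only where 25% or more of the CS cells or of the RA cells had a transcript, 2 were called, and both passed that filter only through the RA cells, where they were high. Without RA mouse M1, 1 gene was called. Of the 16 genes with the smallest p described next, 7 were in under 10% of the cells of 1 group (Olr1, Gm48909, Zswim7, Gm15032, Vwa8, Ppp1r8 and Psen2), so they entered the test only through the group where they were high.

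The 8 genes with the smallest p among those lower in CS included Olr1, Cd14 and Cxcl2, none of which passed the adjusted threshold. Olr1, the scavenger receptor LOX-1 for oxidised lipoprotein, was at 0.182, 0.172, 0.225 and 0.544 per 10000 in CS mice C2, C5, D2 and D5 and at 1.58, 1.201 and 0.797 in RA mice F3, M1 and M3. Every CS mouse was thus below every RA mouse, with means of 0.281 ± 0.177 (n = 4) and 1.19 ± 0.391 (n = 3). The log2 difference was -0.77 (SE 0.14), with a limma adjusted p of 0.1003. The exact permutation p was 0.0571, the smallest that 4 mice against 3 allow, which any gene without overlap gets. Olr1 was picked for its small p and entered the test only through the RA cells, so neither p is support. Olr1 was found in 8.24% of 255 CS cells and 27.4% of 113 RA cells. It was 1 of the 2 genes called under the 25% filter (adjusted p = 0.0445), which it passed only through the RA cells, so that call is no support. In classical monocytes of the same mice Olr1 was at 0.0167 to 0.263, and the CS minus RA difference of the 2 kinds of monocyte differed by -0.78 with a limma adjusted p of 0.819. Without RA mouse F3 the difference was -0.64.

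Cd14, the co-receptor for bacterial lipopolysaccharide, showed the same order of groups. Its levels were 3.62, 2.72, 2.06 and 2.86 in CS and 7.56, 4.40 and 4.73 in RA mice, again without overlap, and the log2 difference of -0.77 (SE 0.18) had a limma adjusted p of 0.695. In classical monocytes Cd14 was at 8.77, 12.5, 9.35 and 12.2 in CS and at 21.1, 14.2 and 17.1 in the same RA mice, also without overlap, and the CS minus RA difference of the 2 kinds of monocyte differed by -0.11 (limma adjusted p = 0.972). Cxcl2, a chemokine that attracts neutrophils, was at 1.84, 2.54, 2.61 and 4.43 in CS and at 14.3, 2.93 and 7.61 in RA mice. Its groups overlapped through M1 and D5, and F3 held the highest value. The log2 difference was -1.10 (SE 0.30, limma adjusted p = 0.695), it was -0.63 without F3, and without M1 it was -1.62 with an adjusted p of 0.0179.

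The other 5 of these 8 genes were a chaperone, a telomere gene and 3 genes at low levels. Hsp90ab1, a cytosolic HSP90 chaperone, was at 9.72 ± 2.64 in CS and 15.5 ± 0.515 in RA mice, and Pot1b, named above among the leading genes, at 3.32 ± 1.28 and 5.97 ± 0.944. Neither pair of groups overlapped, and both had a limma adjusted p of 0.695. Gm48909, a processed pseudogene on chromosome 14 of GRCm38 (48695601 to 48695981) inside the antisense gene Otx2os1, had the smallest p of all, at 0.0981 ± 0.0508 in CS and 0.598 ± 0.0406 in RA mice, with a limma adjusted p of 0.0938. A pseudogene shares sequence with its parent, so its reads are uncertain. Zswim7 and Gm15032, the latter also a processed pseudogene, were at or below 0.469 per 10000 in every mouse.

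The 8 genes with the smallest p among those higher in CS all had a limma adjusted p of 0.695. Cbfa2t3, a transcriptional corepressor of blood cells, was at 6.03, 8.70, 7.74 and 6.35 in CS and at 4.83, 4.73 and 4.09 in RA mice, so the groups did not overlap. Btaf1, which removes TATA-binding protein from DNA, was at 1.64, 2.63, 3.16 and 2.57 in CS and at 1.34, 1.35 and 1.12 in RA mice, also without overlap. Elmsan1, a subunit of a histone deacetylase complex, was at 1.75 ± 0.435 and 0.816 ± 0.0864. Gm47283, annotated on chromosome Y of GRCm38 from 90784738 to 90816464, was at 4.29 ± 1.599 and 2.07 ± 0.346 with overlap. It was also read in C2, C5 and F3, at 2.10, 4.16 and 1.96, where Ddx3y of chromosome Y was at 0. Gm47283 was the gene called with the lane as a block, where the log2 difference was 0.97 and the adjusted p 0.0455. Vwa8, Ppp1r8 and Psen2 were at or below 0.642 per 10000 in every mouse. Gm3511, a processed pseudogene within Sart3, was at 0.765, 2.39, 0.422 and 1.94 in CS mice C2, C5, D2 and D5. In RA mice Gm3511 ran from 0.235 to 0.372. In classical monocytes C5 and D5 also held its highest levels, at 4.59 and 3.22. Its reads are uncertain, as are those of Gm48909.

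**Figure D4:**
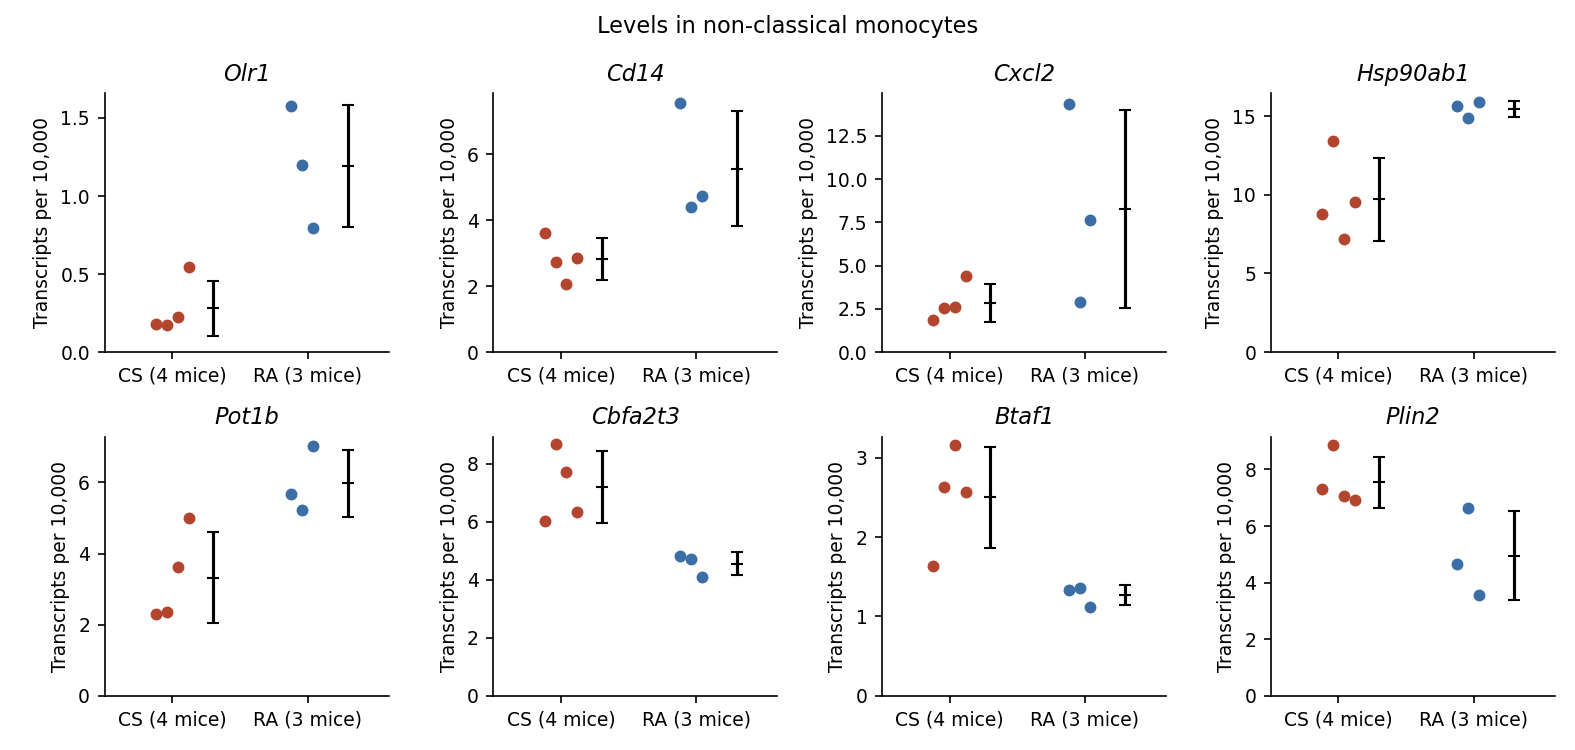
Levels in non-classical monocytes (y axis, transcripts per 10000, from 0) of 8 genes in 4 CS mice (red) and 3 RA mice (blue), with mean ± SD beside the points. Groups do not overlap for Olr1, Cd14, Hsp90ab1, Pot1b, Cbfa2t3, Btaf1 and Plin2 and overlap for Cxcl2, and none of the 8 passed an adjusted p of 0.05. All but Plin2, from the lipid list, were taken from the 16 genes with the smallest p, which favours groups without overlap. Over all genes 4.18% had all CS mice above all RA mice and 2.86% had them below.

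The genes that define non-classical monocytes mostly overlapped between the groups. Nr4a1 was at 13.8, 19.1, 11.03 and 12.2 in CS and at 14.4, 18.8 and 14.2 in RA mice, a log2 difference of -0.17 (SE 0.17, limma adjusted p = 0.867). Ace was at 9.08, 7.88, 9.44 and 8.32 in CS and at 6.27, 8.17 and 8.73 in RA mice (log2 difference 0.16, adjusted p = 0.867), and Treml4 at 6.87, 5.87, 6.02 and 6.37 and at 7.61, 6.60 and 6.10 (-0.09, adjusted p = 0.925). The groups overlapped for each. Over the 21 genes of the non-classical list the median was -0.03 (-0.10 without F3) and 0 were called. Unadjusted p was under 0.05 for 3 of them, beside 6.54% of all genes. Cebpb, a factor needed for the survival of these cells, was at 22.6 ± 3.47 in CS and 29.8 ± 1.43 in RA mice (log2 difference -0.39) without overlap. Cd36, a fatty acid transporter, was at 6.79 ± 0.911 and 5.07 ± 0.251 (0.35) without overlap, and Itgax, which encodes CD11c, at 1.39 ± 0.365 and 0.857 ± 0.242 (0.36) with overlap. Of the 21, 1 had all CS mice above all RA mice and 1 had them below, beside 4.18% and 2.86% of all genes.

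Receptors for survival, adhesion and migration overlapped between the groups. Of 11 survival and growth receptor genes and 13 adhesion genes tested, 0 had an unadjusted p under 0.05, with medians of -0.02 (-0.08 without M3) and -0.08 (-0.05 without D5). Csf1r, the receptor for colony-stimulating factor 1, was at 10.48 ± 0.390 in CS and 10.2 ± 1.31 in RA mice, and Bcl2 at 5.73 ± 0.505 and 7.17 ± 1.54. Cx3cr1, the fractalkine receptor, was at 3.11 ± 0.529 and 3.23 ± 0.996, and Itgal at 14.7 ± 1.31 and 15.5 ± 0.399. In each of these the groups overlapped.

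Inflammatory genes of the NF-kB pathway had a median that depended on RA mouse F3. Of 11 members tested, 4 had an unadjusted p under 0.05, all lower in CS, where 6.54% of all genes had such a p and 182 of 6433 were lower with it. None of the 11 was called by limma, and the median difference was -0.33 against 0.01 over all genes. The 4 were Cxcl2, Tnf, Tnfaip3 and Ccl3, of which the last 3 were chosen after their values were seen. Tnf, the cytokine, was at 0.884, 1.46, 0.788 and 1.605 in CS and at 5.97, 1.4998 and 2.13 in RA mice, so the groups overlapped through M1. The 4 most abundant members were Il1b at 11.02 ± 0.987 and 13.9 ± 3.07, Nfkbia, the inhibitor of NF-kB, at 8.71 ± 1.69 and 12.2 ± 7.61, Nfkb1 at 7.05 ± 0.653 and 7.83 ± 1.49, and Nfkbiz at 6.30 ± 1.76 and 8.23 ± 2.19. Their log2 differences ran from -0.35 (Nfkbiz) to -0.12 (Nfkb1), and each had an unadjusted p above 0.05 and groups that overlapped. RA mouse F3 held the highest value for 10 of the 11, with Ccl4 highest in M1, and without it the median was -0.13, with 7 of the 11 lower in CS, above the medians of chaperones (-0.30) and MHC class II genes (-0.16) without F3. Without M1 the median was -0.42 and without M3 -0.51, each with 11 of 11 lower.

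Among chaperones, Hspa1a and Hspa1b differed widely between mice of 1 group, while Hspa8 was at 7.12 to 9.13 in CS and at 8.48 to 11.3 in RA mice. Hspa1a, the inducible HSP70, was at 0.807, 23.4, 4.84 and 6.82 in CS mice C2, C5, D2 and D5 and at 1.40, 18.5 and 12.96 in RA mice F3, M1 and M3. The 2 mice of 1 lane, C5 and M1, held the 2 highest values. In classical monocytes C5 and M1 had 10.2 and 12.9, M3 12.5, and the other 5 mice 0.597 to 3.70. Over the 16 chaperones tested the median was -0.22, with 14 lower in CS (-0.12 without M1), where 3094 of all 6433 genes were lower, and 2 at an unadjusted p under 0.05, Hsp90ab1 and Hsph1, where 6.54% of all genes were. The part of lane or handling in these values was not tested.

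Antigen presentation and lipid genes held a few single values. Of 6 MHC class II genes tested, H2-Aa and H2-Eb1 had an unadjusted p under 0.05, at 1.11 ± 0.860 against 1.95 ± 0.288 and at 0.484 ± 0.295 against 1.10 ± 0.573, both with overlap. The list's median was -0.20, and it was -0.08 without C5, -0.11 without M1, -0.37 without D5 and -0.39 without M3. Cd74 was at 12.5 ± 4.06 and 13.2 ± 2.41. Among 10 MHC class I genes the median was -0.01 (-0.04 without D2 and 0.04 without C5) and Tap2, a peptide transporter, had an unadjusted p under 0.05, at 0.838 ± 0.254 and 0.472 ± 0.0357. Of 9 lipid handling genes tested, 3 had an unadjusted p under 0.05 and were higher in CS, and 1, Fabp5, was lower, each without overlap, and the median was 0.13. Over all genes 6.54% had such a p, 4.18% had all CS mice above all RA mice and 2.86% had them below. Plin2, the coat protein of lipid droplets, was at 7.32, 8.87, 7.07 and 6.92 in CS and at 4.67, 6.64 and 3.56 in RA mice (log2 difference 0.55, SE 0.18, limma adjusted p = 0.702). Apoe, apolipoprotein E, was at 22.9, 21.7, 18.7 and 21.3 in CS and at 17.2, 14.9 and 18.1 in RA mice (0.32, adjusted p = 0.721). The third was Cd36. Without F3 the median of the lipid list was -0.02.

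**Figure D5:**
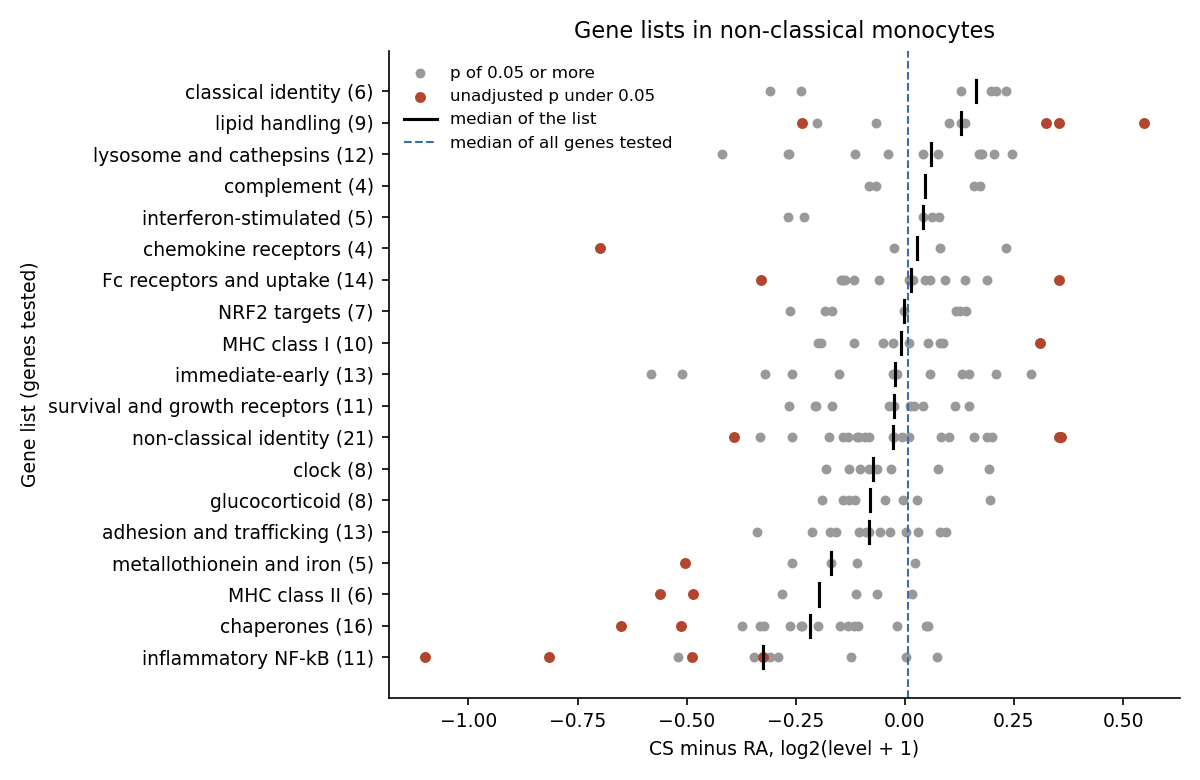
CS minus RA difference (x axis, log2(level + 1)) of each tested gene in 19 lists (y axis, genes tested in brackets), red where the unadjusted limma p is under 0.05, with the list's median as a bar and the median of all 6433 genes, 0.01, as a dashed line. The medians run from -0.33 (inflammatory NF-kB, -0.13 without F3) to 0.16 (classical identity, -0.05 without M3), and no point passed an adjusted p of 0.05.

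The remaining lists held 0 to 2 genes each with an unadjusted p under 0.05, where 6.54% of all 6433 genes had such a p. Of 7 NRF2 targets tested, which answer oxidants, 0 had an unadjusted p under 0.05 and the median was 0.00 (-0.11 without F3), with Hmox1, heme oxygenase, at 1.49 ± 0.429 in CS and 1.89 ± 0.843 in RA mice. Of 6 genes of the aryl hydrocarbon receptor 3 could be tested, with 0 under 0.05, and Cyp1a1, its best-known target, was at 0 in 5 of the 7 mice and at most 0.0275. The medians were -0.08 for 8 glucocorticoid-linked genes, -0.07 for 8 clock genes, 0.04 for 5 interferon-stimulated genes, 0.05 for 4 complement genes and -0.02 for 13 immediate-early genes, and none of these had a member with an unadjusted p under 0.05. Without 1 mouse the interferon median was -0.09 (M1), the complement median -0.10 (C5) and the immediate-early median -0.14 (C5) or 0.11 (D2), while the glucocorticoid median was -0.16 (D5) or -0.03 (D2) and the clock median -0.12 (F3) or -0.05 (C5). Lysosomal genes likewise had 0 of 12, with a median of 0.06 that was -0.01 without M3 and 0.15 without F3. Among 14 Fc receptor and uptake genes Fcgr3 (lower) and Cd36 (higher) were under 0.05 and the median was 0.01 (-0.05 without M3). Among 4 chemokine receptors Ccrl2 (lower) was, among 5 genes of metallothionein and iron Ftl1 (lower, with a list median of -0.17, and -0.27 without M3 and -0.10 without M1), and among 3 proliferation genes Ccnb2 (higher) and Mcm3 (lower). The classical list, of which 6 of 10 genes passed the filter, had a median of 0.16 and 0 under 0.05, and the median was -0.05 without M3 and -0.01 without M1. The 79 ribosomal protein genes tested had a median of -0.09, with 57 lower in CS, and the 12 mitochondrially encoded genes 0.15, with 8 higher. Of all 6433 genes, 3094 were lower and 3339 higher. In each of these 2 sets 2 genes had an unadjusted p under 0.05, beside 6.54% of all genes.

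The response to CS was also compared between the 2 kinds of monocyte. In 4 CS and 3 RA mice, 7417 genes were tested with limma for a CS minus RA difference that differed between non-classical and classical monocytes of the same mouse. At an adjusted p of 0.05, 0% were called, and 446 had an unadjusted p under 0.05. The smallest adjusted p was 0.794. The alternatives called 0 as well.

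Levels of the markers of other cells ranged widely. T cell markers summed to at most 0.0504 per 10000 in any of the 7 mice, NK cell markers to at most 0.0134 and mast cell and basophil markers to at most 0.0797, and Cd3g, Ncr1, Klrb1c, Nkg7, Mcpt8, Mcpt4 and Ms4a2 were at 0 in all 7. B cell markers summed to 0.129 to 0.262 in CS and 0.340 to 0.351 in RA mice, endothelial markers to 0.563 to 0.832 and 0.504 to 0.719, and fibroblast markers to 0.217 to 0.292 and 0.0965 to 0.688. Alveolar macrophage markers ran from 0.128 to 1.62 and from 0.128 to 0.949, with Ear1 at 0 in F3 and at most 1.54, and dendritic cell markers reached at most 0.306. C1qa, C1qb, C1qc, Folr2 and Cd163, known from interstitial macrophages, were each at 0.438 or less in every mouse. Other markers varied more by mouse. Neutrophil markers summed to 1.45 to 7.50 in CS and 1.53 to 4.82 in RA mice, airway markers to 0.272 to 3.71 and 0.620 to 10.2 with F3 highest, erythroid markers to 0.129 to 2.75 and 0.246 to 5.34, and alveolar type 2 markers to 0.247 to 1.49 and 0.207 to 0.760. In the cell types that they mark, the same sets summed to 858, 4174, 2393 and 1619 per 10000. F3, which held the highest airway sum, also held the highest sum of the classical list, 28.7 against at most 20.7 in CS mice. The same mouse held the highest level of 10 of the 11 NF-kB genes tested. The part of other cells' RNA, that of classical monocytes included, in those values was not tested.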

How the data were processed

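Single-cell RNA libraries from 8 mouse lungs were analysed from the matrix and cell table that the authors deposited. Per the study's methods, the authors aligned reads with STARsolo (STAR 2.7.3a) to GRCm38.p6, summed spliced and unspliced UMIs, filtered cells, removed free RNA with SoupX and named clusters from markers. The deposited matrix holds estimated counts after that removal, and 1.28% of its values are whole within 1e-06. The percent of mitochondrial transcripts that the authors deposited per cell was read but enters no test. Among non-classical monocytes, 2 barcodes also occur in another mouse. Cells labelled multiplets (1025) or cell cycle (7) were left out.

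Each cell was scaled to 10000 transcripts and averaged per mouse, since cells of a mouse are not replicates. Mice with at least 20 cells and genes found in at least 10% of cells of either group entered limma 3.58.1 (R 4.3.3) on log2(mean + 1), with Benjamini-Hochberg adjustment, a script tested on simulated data. Genes were named by rule: the 3 markers, the 8 smallest p in each direction, up to 4 most abundant tested members of each list, the 15 largest ratios to another label, and the 8 highest and lowest against classical monocytes by the mean difference within mice. Other genes named were chosen after their values were seen. The members and lists were chosen with earlier results of these data known. Samples shared lanes per the labels. Over the genes tested, deviations of mice from their group means correlated at 0.107, -0.0208 and -0.0139 in the 3 same-lane pairs. Pairs of a CS and an RA mouse from different lanes ran from -0.106 to 0.117. Upstream sequences came from RefSeq and gene positions from GENCODE M21 (GRCm38). Itgam and Per3 were not analysed here, and some results are not reported here.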

Additional observations from a re-analysis of the deposited data

Results flagged for a closer look

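Among groups of 4 mice, 145 were examined for 1 mouse far from the other 3 by Dixon's test, and 5 were found. Chance gives about 1 in 20, so 5 of 145 is no more than chance gives. Gene levels in RA rest on 3 mice and could not be examined in this way. Olr1 was 0.544 per 10000 in CS mouse D5 against 0.172 to 0.225 in the other CS mice. Cd300e was 4.44 in D5 against 3.25 to 3.38, and Itgal was 12.7 in D5 against 15.1 to 15.5. Mcm3 was 0.246 in CS mouse C5 against 0.0198 to 0.0477. Ccl3 was 0.335 in CS mouse C2 against 0.992 to 1.11.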

How the results depend on the processing

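The count of genes called between CS and RA was 0, and it became 2 with genes found in at least 25% of cells of either group (Olr1 and Gm48909, both lower in CS, adjusted p = 0.0445, over 3541 genes), which both passed only through RA, and 1 with lane as a replicate block (Gm47283). Leaving out 1 mouse at a time gave 0 to 1, the 1 being Cxcl2 without RA mouse M1, with 499 genes at an unadjusted p under 0.05. The cause of these changes was not tested. The other alternatives called 0: pseudocounts of 0.1 and 0.5, no filter, summing before scaling, median scaling, quantile normalization, weights by cells, equal cells per mouse, and, chosen after seeing the data, cells of the main cluster only. The difference between the 2 kinds of monocyte gave 0 calls throughout, the block of lanes included. Of 119 named genes refitted under 18 alternatives, 44 changed sign at least once, none of them past the threshold. Over the alternatives the adjusted p of Olr1 ran from 0.0445 to 0.844, that of Cxcl2 from 0.0179 to 0.920 and that of Gm47283 from 0.0455 to 0.920. The share of immune cells differed by 2.34 percentage points, and by 3.09 (p = 0.0286, exact permutation test) with multiplets of the main cluster alone counted, also chosen after seeing the data. Shares among monocytes and UMIs per cell kept their direction and side of the threshold. With 32 to 73 cells per mouse, transcripts below about 1 per 10000 rest on few molecules.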

Other observations

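The reporters were read at low levels in non-classical monocytes. eGFP was at 0.606 to 2.27 per 10000 and tdTomato at 0.554 to 2.17 in the 7 mice, and CS and RA mice overlapped for both (log2 differences of 0.23 and -0.30).

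The 27 non-classical monocytes that the authors' clustering placed with the classical cells, in a cluster of 661 classical monocytes, held both sets of genes. Nr4a1, Ace and Treml4 were at 11.4, 5.33 and 3.47 per 10000 in these, against 14.8, 8.59 and 6.66 in the 343 cells of the main cluster. Ly6c2, Ccr2 and Chil3 were at 2.57, 4.54 and 6.62, against 0.0514, 0.408 and 0.934. These groups come from the clustering of the same genes, so no test is given.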
